A study of Mus musculus with 6 samples.

Results

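Il9, the gene of the cytokine interleukin 9, was followed through all 6 libraries of a study of mouse Th9 cells made with or without interleukin 1β (IL-1β). It was found by its gene symbol, had 1 entry in every file, and is 1 of 23091 gene symbols measured. All cells came from wild-type mice of strain C57/Bl6j, 7 weeks old. Naive CD4 T cells of spleen and lymph nodes were stimulated through plate-bound anti-CD3 and anti-CD28 and given IL-4 at 20 ng/ml, TGFβ at 2 ng/ml and an antibody that blocks interferon γ. The 6 groups of 1 library each were Th9 + IL-1β (10 ng/ml added) and Th9 (none added), each taken at 1 h, at day 3 and in vivo. The in vivo cells bore the CD45.2 marker, spent 3 days in culture, were then given to CD45.1 hosts by injection, and were sorted after 1 week in the host. How many mice stand behind a library, and whether mice were pooled, the labels do not say. Values are the authors' FPKM (fragments per kilobase of transcript, scaled to the mapped fragments of the library), each with a deposited lower and upper bound, called the interval below.

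Interleukin 9 is a growth and survival factor for mast cells and T cells, and acts on airway epithelium and innate lymphoid cells. Th9 cells are a helper T cell state defined by its secretion, and arise when IL-4 and TGFβ act together on activated CD4 T cells. IL-4 signals through STAT6, TGFβ through SMAD proteins, and the factors IRF4, BATF, PU.1 and GATA3 are known to act at the Il9 locus. The receptor pairs a private chain, encoded by Il9r, with the common γ chain, encoded by Il2rg, and signals through JAK1 and JAK3 to STAT proteins.

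The gene lies on chromosome 13, from 56580638 to 56583607 in mm9, the build of the files, and spans 2970 bases. In the GENCODE M21 annotation of a later build, GRCm38, it is on the minus strand and has 1 transcript of 5 exons and 536 bases. Of these, 432 are coding, for 144 amino acids, and 104 are untranslated. The 250 bases before its start site are printed because the factors whose levels are given below are known to act on this promoter. They come from RefSeq on GRCm38.p6, chr13:56482258-56482507, minus strand, and capitals mark the motif matches named next.
Il9 promoter: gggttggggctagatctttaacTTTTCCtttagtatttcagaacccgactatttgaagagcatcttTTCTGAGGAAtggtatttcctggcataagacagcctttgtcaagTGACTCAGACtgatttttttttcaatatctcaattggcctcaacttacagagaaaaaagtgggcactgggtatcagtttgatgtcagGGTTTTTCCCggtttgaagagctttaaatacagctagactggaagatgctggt

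Motifs were searched on both strands, with positions counted back from the start site. The AP-1 and BATF motif TGANTCA matched 1 time, at positions 140 to 134, as TGACTCA, and overlapped the SMAD box CAGAC at 135 to 131. The NF-κB motif (GGGA and CC with 4 bases between them) matched 1 time, on the opposite strand at 53 to 44, as GGGAAAAACC. The STAT6 motif (TTC and GAA with 4 bases between them) matched 1 time, at 184 to 175. The NFAT core GGAAAA matched 2 times on the opposite strand, at 228 to 223 and at 50 to 45, inside the NF-κB match. Of all 32851 promoter windows of the same length, 6.75% held the AP-1 motif, 17.6% the NF-κB motif, 5.85% the STAT6 motif, 42.2% the SMAD box and 20.4% the NFAT core. Among the 25 other cytokine genes with a promoter in the table, 4 held the AP-1 motif, 9 the NF-κB motif, 4 the STAT6 motif, 12 the SMAD box and 7 the NFAT core. Other motifs searched were not in the window. These were the STAT5 motif (TTC and GAA with 3 bases between them, held by 7.02% of all windows), an interferon response core (GAAA and GAAA with 2 bases between them, 2.98%) and the PU.1 form GAGGAAG (10.6%). The shorter PU.1 form GAGGAA was not searched for, and its letters stand inside the STAT6 match. The GATA form AGATAA (9.99% of windows), the form AGATAG (7.71%), the form TGATAA (7.94%) and the form TGATAG (6.35%) were not in it either. These matches describe letters and are not binding data.

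Il9 was high in 1 library, Th9 + IL-1β at day 3. At 1 h, Il9 was listed at 0 FPKM in both Th9 + IL-1β and Th9. At day 3 it stood at 274 FPKM (interval 149 to 227) in Th9 + IL-1β and at 39.8 FPKM (16.5 to 48.4) in Th9. In vivo it stood at 49.6 FPKM (17.7 to 48.0) in Th9 + IL-1β and at 59.5 FPKM (23.3 to 57.0) in Th9.

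In falling order of level, Th9 + IL-1β at day 3 came first, then Th9 in vivo, Th9 + IL-1β in vivo and Th9 at day 3. The interval of the first lay above those of the other 3, and its lower bound was 2.62 to 3.11 times their upper bounds. The intervals of the other 3 overlapped one another, so those neighbours in the order did not differ beyond their intervals. With 1 library per group there is no spread between replicates, and the intervals do not include one.

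**Figure D1:**
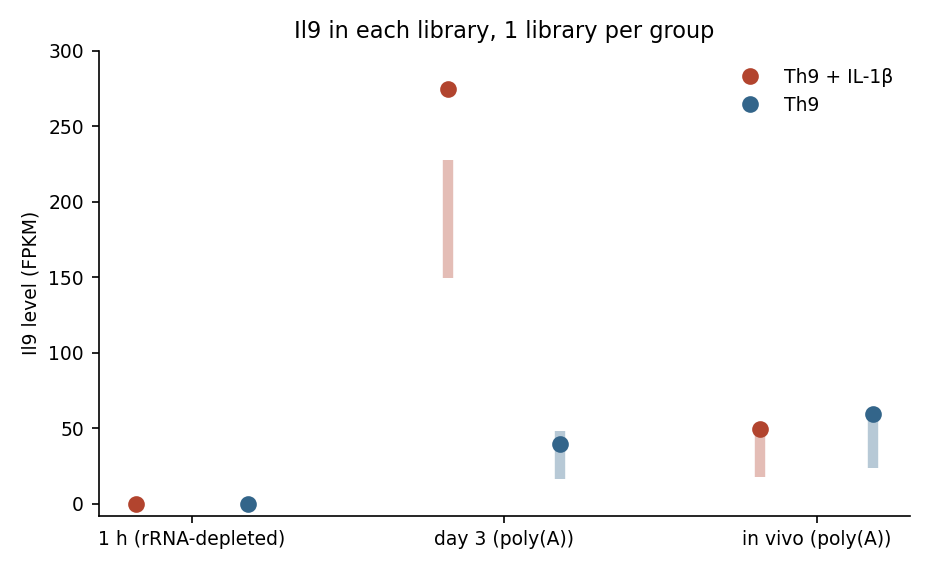
Il9 level in FPKM in each of the 6 libraries, by stage, with Th9 + IL-1β left of Th9. Points are the deposited FPKM and bars the deposited intervals. The point of Th9 + IL-1β at day 3, at 274 FPKM, stands above the other 5, and 3 points lie above their own bars.

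In 3 of the 4 libraries with Il9 above 0, the FPKM lay above its own interval. The FPKM was 1.46 times the midpoint of the interval in Th9 + IL-1β at day 3, and 1.23 times, still inside the interval, in Th9 at day 3. In vivo the factor was 1.51 in Th9 + IL-1β and 1.48 in Th9. Other short transcripts showed the same feature. Among genes at 5 FPKM or more with transcripts of 429 to 670 bases, close to the Il9 length, 41.8% to 44.2% had an FPKM above the interval in these 4 libraries, against 3.10% to 3.90% of all genes at 5 FPKM or more. By interval midpoints, the ratio of Th9 + IL-1β to Th9 at day 3 was 5.81, against 6.90 by FPKM. The half-width of the interval was 20.7% of its midpoint in Th9 + IL-1β at day 3, and 41.9% to 49.2% in the other 3, so the lower levels are the less precise ones.

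The rank of Il9 among all genes followed its level. Il9 was gene number 202 of 11914 above 0 in Th9 + IL-1β at day 3, the top 1.70%, and number 1837 of 11960 in Th9 at day 3, the top 15.4%. In vivo it was number 1369 of 13703 in Th9 + IL-1β (top 9.99%) and number 1132 of 12826 in Th9 (top 8.83%). T cell identity genes, which encode the T cell receptor complex and its signalling partners, were present in every poly(A) library, with 13 members summing to 2672 to 3138 FPKM. Il9 amounted to 8.75% of this sum in Th9 + IL-1β at day 3 and to 1.39% in Th9. In vivo it amounted to 1.86% in Th9 + IL-1β and 2.17% in Th9. In bulk libraries, fewer cells that express a gene and less RNA per cell cannot be told apart.

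The 1 h libraries say little about Il9. They were made from rRNA-depleted RNA and the other 4 from poly(A)-selected RNA, so time and RNA selection cannot be told apart. Only 765 genes reached 5 FPKM in Th9 + IL-1β at 1 h and 631 in Th9, against 7313 to 8154 in the poly(A) libraries. Gapdh, which every cell uses, was also listed at 0 FPKM in Th9 + IL-1β at 1 h and stood at 0.99 FPKM in Th9. Not all such genes were low at 1 h. Actb stood at 242 FPKM in Th9 + IL-1β and 187 FPKM in Th9, and B2m at 123 and 106 FPKM. No fold of Il9 against 1 h is given. By the rule described next, 95.5% of 7392 genes compared were higher at day 3 than at 1 h in Th9 + IL-1β and 95.7% of 7689 in Th9, and Il9 was among them in both arms.

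The day 3 libraries address the effect of IL-1β on Th9 cells in the dish. Calls, higher or lower, needed 3 things: a ratio of FPKM + 1 of 2-fold or more, 5 FPKM or more in the larger library, and intervals that lay apart. This rule gives no p-value. Il9 was called higher in Th9 + IL-1β at day 3, 6.75-fold on FPKM + 1 (log2 ratio 2.76), where 1.29% of 7962 genes compared were called higher and 2.15% lower. Its ratio was number 4 from the top among the 7906 compared genes above 0 in both libraries. The lower bound in Th9 + IL-1β was 3.09 times the upper bound in Th9.

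Transcript length moved with the ratio at day 3. Across 7240 compared genes with a known length, the Spearman correlation of log2 ratio and length was -0.53 (genes of the same pair of libraries, not independent replicates). Of 5 length bins, the shortest, which holds Il9, had a median log2 ratio of 0.33, and the longest one of -0.42. Among 85 genes with transcripts of 429 to 670 bases, the median was 0.52 and the 95th percentile 1.55. The Il9 ratio was the highest of these, and the next was 2.02. With the length trend removed, Il9 kept a log2 ratio of 2.18 and its call.

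**Figure D2:**
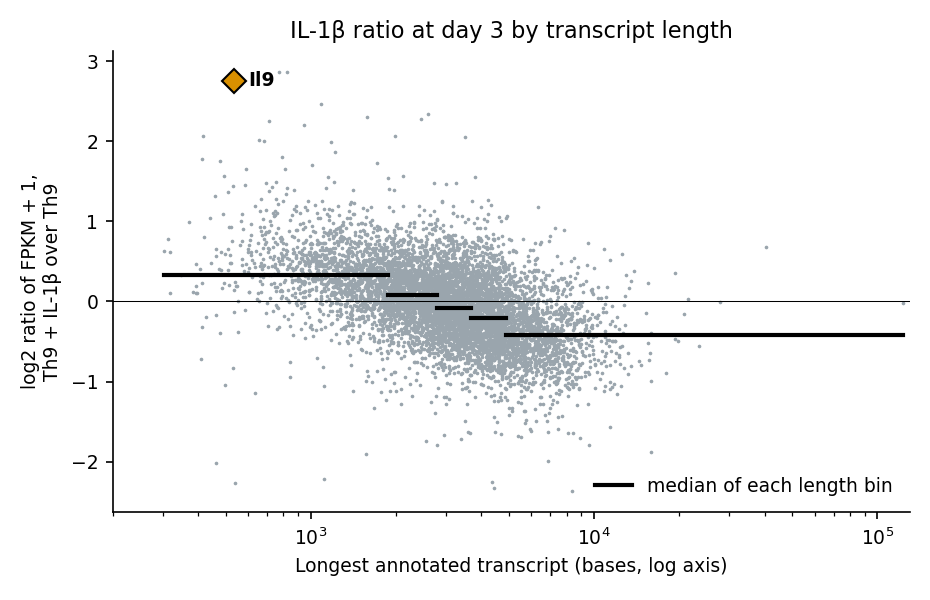
Log2 ratio of FPKM + 1, Th9 + IL-1β over Th9 at day 3, against the longest annotated transcript of each gene in bases, on a log axis. Grey points are genes above 0 in both libraries, black bars the median of each of 5 length bins, and the diamond is Il9, at 2.76 above a median of 0.33 in its bin.

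Among cytokine genes, Il9 alone was called at day 3. Of the 32 genes in a list of T cell cytokines, 20 were compared at day 3, of which 1 was called higher (Il9) and 0 lower. Their median log2 ratio was 0.38, against -0.05 over all genes compared and 0.33 in the shortest length bin (303 to 1868 bases). The cytokine genes were not matched for transcript length, so their median is no result about the list. The part of transcript length in it was not tested. Il9 was the cytokine gene with the second highest level in Th9 + IL-1β at day 3, and number 8 in Th9. The gene above it in Th9 + IL-1β was Il24, of the IL-10 family, at 303 FPKM (229 to 290), against 195 FPKM (145 to 188) in Th9 (log2 ratio 0.63). The gene next below Il9 in Th9 + IL-1β was Tgfb1, at 221 FPKM. Its interval (188 to 231) overlapped that of Il9 (149 to 227), so the order of Il9 and Tgfb1 is not settled. Il9 made up 17.4% of the summed cytokine FPKM in Th9 + IL-1β and 3.63% in Th9. The other 31 cytokines summed to 1302 FPKM in Th9 + IL-1β and 1058 FPKM in Th9.

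The type 2 cytokines, whose genes are often active in the same cells as Il9, were not called at day 3. Il13, which drives mucus production, stood at 138 FPKM (103 to 147) in Th9 + IL-1β and 74.8 FPKM (53.5 to 88.3) in Th9. Il5, the eosinophil growth factor, stood at 19.1 FPKM in Th9 + IL-1β and 9.95 FPKM in Th9. Il4, the cytokine that starts type 2 responses, stood at 23.0 FPKM in Th9 + IL-1β and 21.2 FPKM in Th9. The intervals of Il13 were apart but its ratio was under 2-fold (log2 ratio 0.87). Csf2, which encodes the growth factor GM-CSF, had the next largest log2 ratio after Il9 among the cytokines compared at both stages, 1.25, with 20.4 FPKM in Th9 + IL-1β and 7.98 FPKM in Th9, and was not called.

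**Figure D3:**
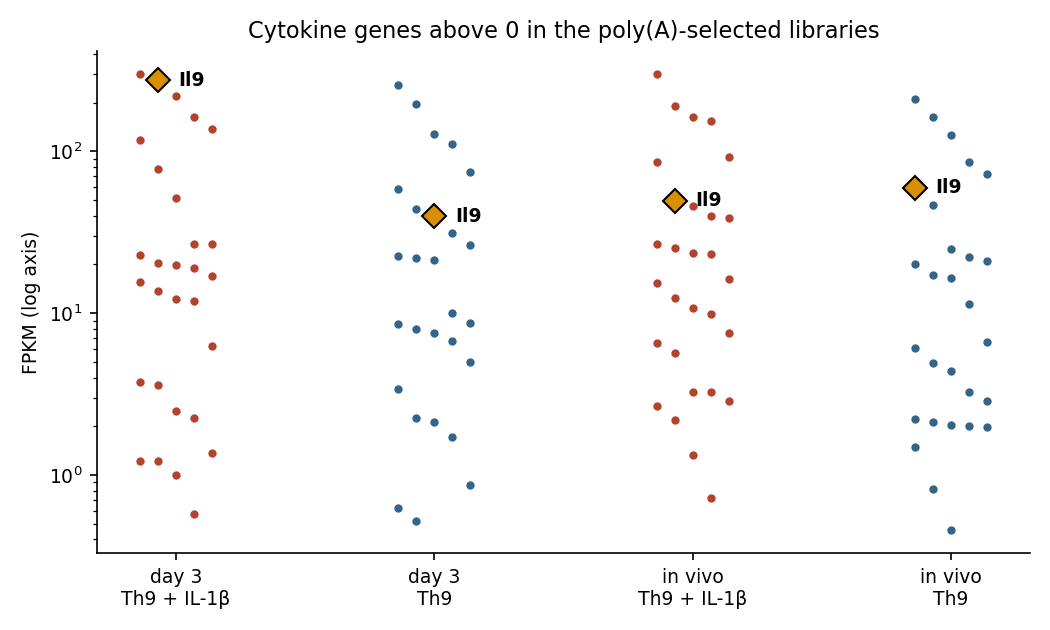
FPKM, on a log axis, of the cytokine genes above 0 in each of the 4 poly(A)-selected libraries, with Th9 + IL-1β left of Th9 at each stage. Each point is a gene, spread sideways for legibility, and the diamond is Il9, second from the top in Th9 + IL-1β at day 3 and number 8 in Th9 at day 3.

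Of 24 transcription factors known to induce Il9, 22 were compared at day 3, with log2 ratios from -0.97 to 0.86 and a median of -0.31. The 0 calls among them are near the background of 1.29% called higher and 2.15% lower, so the count is no result about the list. IRF4 and BATF bind DNA together in activated T cells. Irf4 stood at 94.7 FPKM in Th9 + IL-1β and 118 FPKM in Th9, and Batf at 170 FPKM in Th9 + IL-1β and 122 FPKM in Th9. Batf3, a relative of Batf, had the highest ratio of the list, with 40.3 FPKM in Th9 + IL-1β and 21.7 FPKM in Th9. Gata3, the type 2 lineage factor, stood at 204 FPKM in Th9 + IL-1β and 194 FPKM in Th9. Stat6, which carries the IL-4 signal, stood at 30.1 FPKM in Th9 + IL-1β and 47.9 FPKM in Th9.

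Sfpi1, the gene of PU.1, was near the limit of detection in culture. It was listed at 0 FPKM in Th9 + IL-1β at day 3 and stood at 0.49 FPKM in Th9. The NF-κB genes were not called: Rela stood at 41.6 FPKM in Th9 + IL-1β and 45.6 FPKM in Th9, and Nfkb1 at 56.5 FPKM in Th9 + IL-1β and 85.1 FPKM in Th9. Of 8 factors known to restrain Il9 or the Th9 state, 6 were compared and 0 called at day 3. This is near the 1.29% called higher and 2.15% lower among all genes compared, so the count is no result about the list. The 6 had a median log2 ratio of -0.18. Id3, an inhibitor of E proteins, had the highest of these, with 19.3 FPKM in Th9 + IL-1β and 13.3 FPKM in Th9. Foxp3, the regulatory T cell factor, stood at 7.61 FPKM in Th9 + IL-1β and 7.55 FPKM in Th9.

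**Figure D4:**
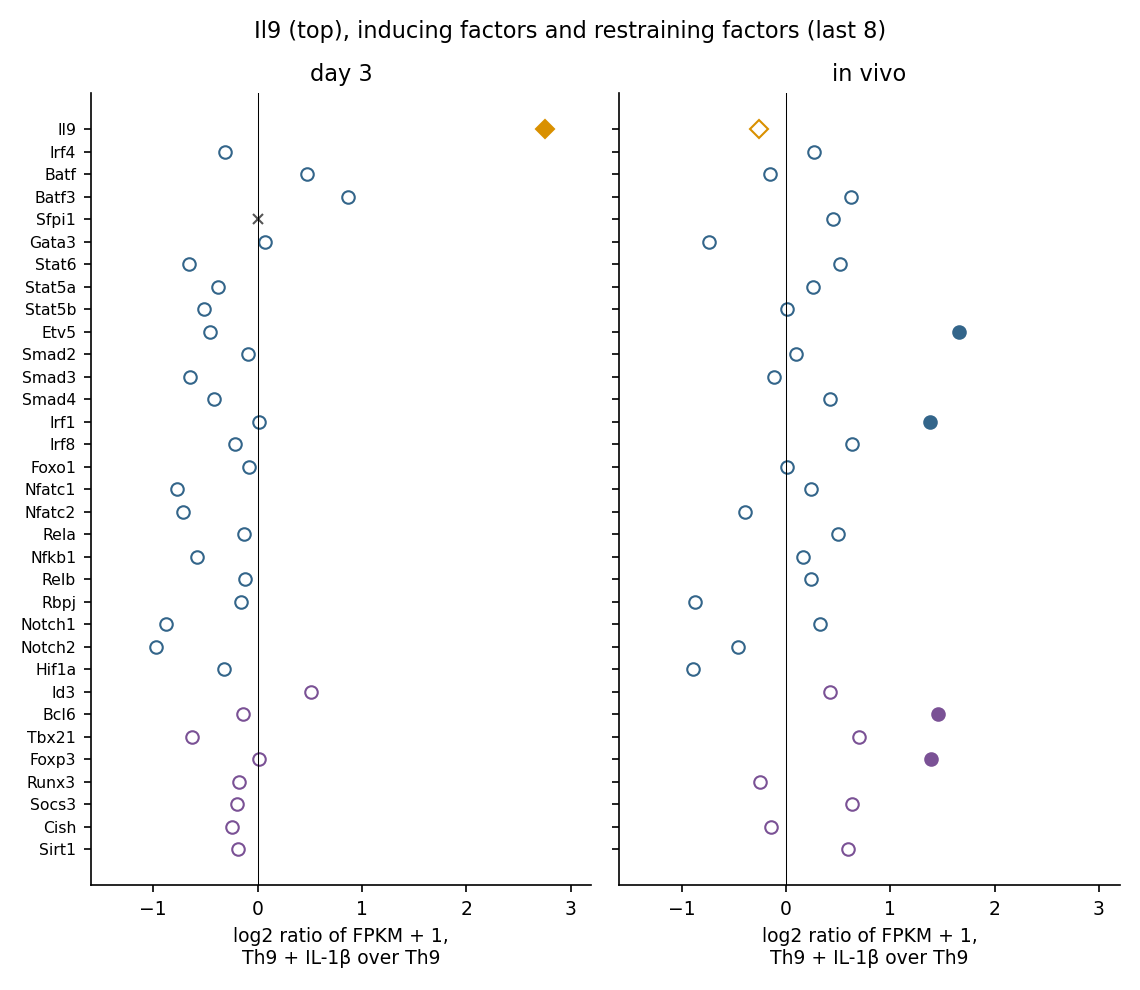
Log2 ratio of FPKM + 1, Th9 + IL-1β over Th9, at day 3 (left panel) and in vivo (right panel), for Il9 (diamond, top row), 24 inducing factors and 8 restraining factors. Filled symbols were called, open ones were not, and the cross marks Sfpi1, listed at 0 in Th9 + IL-1β at day 3. At day 3 Il9 is the one filled symbol.

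Of 15 receptor genes for the inducing signals, 11 were compared at day 3 and 0 called, also near the background, with a median log2 ratio of -0.29. Il4ra, the IL-4 receptor chain, stood at 146 FPKM in Th9 + IL-1β and 231 FPKM in Th9. The IL-1 receptor gene Il1r1 was low in both, at 0.67 FPKM in Th9 + IL-1β and 0.24 FPKM in Th9. Tnfrsf4, which encodes the costimulator OX40, stood at 621 FPKM in Th9 + IL-1β and 510 FPKM in Th9.

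Il9r, the private chain of the IL-9 receptor, was low wherever it was above 0. It was listed at 0 FPKM in both libraries at 1 h. At day 3 it stood at 0.42 FPKM (0 to 1.47) in Th9 + IL-1β and 0.57 FPKM (0 to 1.34) in Th9. In vivo it stood at 1.19 FPKM (0.24 to 2.39) in Th9 + IL-1β and 1.46 FPKM (0 to 2.92) in Th9. The shared chain Il2rg stood at 399 FPKM in Th9 + IL-1β at day 3 and 362 FPKM in Th9, and at 447 and 331 FPKM in Th9 + IL-1β and Th9 in vivo. The list of this receptor and its signalling gave 0 calls among the 7 members compared at day 3. These were Il2rg and the kinase and STAT genes. The count is near the 1.29% called higher and 2.15% lower among all genes compared, so it is no result about the list. Irs2, an adaptor of IL-4 and IL-9 receptors, did not reach 5 FPKM at day 3 and was not compared, with 0.32 FPKM in Th9 + IL-1β and 4.64 FPKM in Th9.

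Mast cells, basophils and type 2 innate lymphoid cells also make or answer to interleukin 9, so their markers are given beside it. Mcpt8, a basophil protease gene, was called higher at day 3, with 7.59 FPKM in Th9 + IL-1β and 0.87 FPKM in Th9, and was the 1 member of 12 mast cell and basophil markers that was compared. The list summed to 18.1 FPKM in Th9 + IL-1β and 8.71 FPKM in Th9. The mast cell proteases Mcpt4, Tpsab1 and Tpsb2 were listed at 0 FPKM in both. Ms4a2, the β chain of the IgE receptor, stood at 0 FPKM in Th9 + IL-1β and 0.68 FPKM in Th9. In the same order, Kit, the stem cell factor receptor, stood at 0.37 and 0.78 FPKM, and Hdc, the histamine-forming enzyme gene, at 1.11 and 1.52 FPKM. The remaining markers had the larger value in Th9 + IL-1β. None of them reached 5 FPKM or was compared, and their intervals overlapped or met at 0. Cpa3 stood at 2.90 and 1.32 FPKM, Cma1 at 1.38 and 0.63 FPKM, and Prss34 at 2.98 and 2.72 FPKM. Gata2 stood at 1.00 and 0.18 FPKM, and Fcer1a at 0.73 and 0 FPKM. The part of such cells in the Il9 level was not tested. Among the 7 markers of type 2 innate lymphoid cells, Id2, which T cells also express, stood at 123 FPKM in Th9 + IL-1β and 81.1 FPKM in Th9, and the other 6 were at or under 2.38 FPKM in both.

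The in vivo libraries address what is left of an IL-1β difference 1 week after transfer. Il9 was not called in vivo. Its log2 ratio of FPKM + 1 was -0.26, with overlapping intervals, where 6.23% of 8639 genes compared were called higher and 3.48% lower. Against the day 3 ratio of 2.76, the in vivo ratio was 3.01 lower on the log2 scale, and this difference could not be tested with 1 library per group. In vivo, Il9 was the cytokine gene with rank 7 in Th9 + IL-1β and rank 6 in Th9, and made up 3.64% of the summed cytokine FPKM in Th9 + IL-1β and 6.33% in Th9. Lif came next below Il9 by FPKM in both. Its intervals, 39.6 to 52.0 in Th9 + IL-1β and 40.2 to 52.7 in Th9, overlapped those of Il9.

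Other cytokine genes were called in vivo. Of 22 compared, 7 were called higher in Th9 + IL-1β and 0 lower, where 6.23% of 8639 genes compared were called higher and 3.48% lower. The 7 were Il3, Il5, Il10, Il17a, Ifng, Ltb and Csf2. Their list's median log2 ratio was 0.94, against 0.03 over all genes compared. Il5 stood at 39.0 FPKM in Th9 + IL-1β and 16.6 FPKM in Th9 (log2 ratio 1.19). Ifng, the interferon γ gene, stood at 86.3 FPKM in Th9 + IL-1β and 11.4 FPKM in Th9 (2.81). Ltb, the membrane lymphotoxin gene, stood at 302 FPKM in Th9 + IL-1β and 126 FPKM in Th9 (1.26). Il13 stood at 163 FPKM in Th9 + IL-1β and 86.4 FPKM in Th9 (0.91) and Il24 at 154 FPKM in Th9 + IL-1β and 164 FPKM in Th9 (-0.09), and neither was called.

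**Figure D5:**
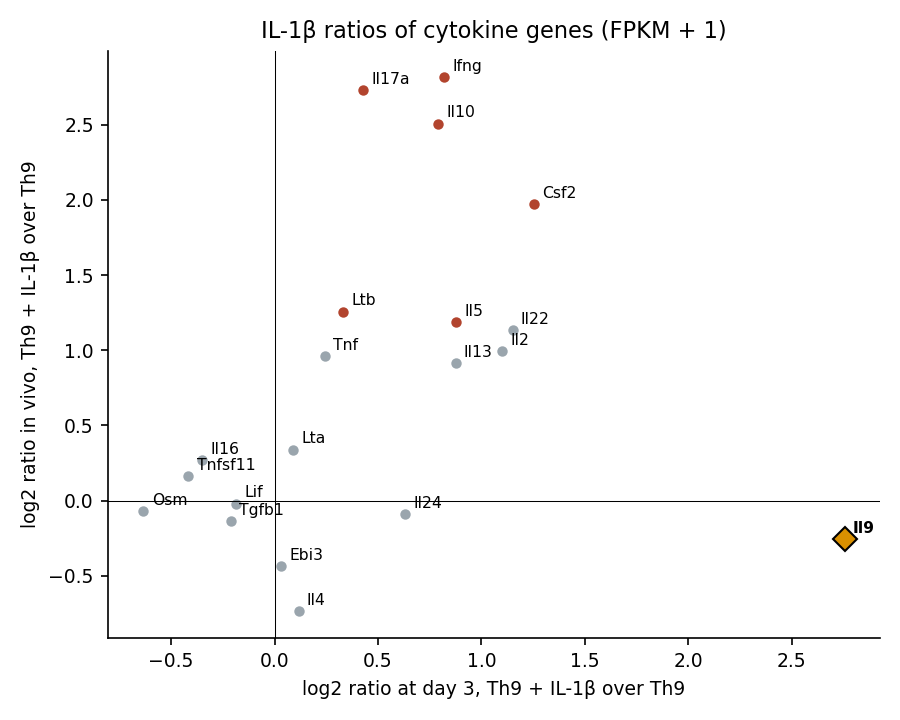
Log2 ratio of FPKM + 1, Th9 + IL-1β over Th9, at day 3 (horizontal axis) and in vivo (vertical axis) for the 20 cytokine genes compared at both stages and above 0 in all 4 libraries. Red points were called at 1 of the stages and grey points at neither. Il9, the diamond, lies at 2.76 and -0.26, farthest right and just below 0.

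Of the 24 inducing factors, 2 were called higher in vivo and 0 lower (median log2 ratio 0.24), a share near the 6.23% called higher among all genes compared, so the count is no result about the list. Etv5, an ETS factor downstream of STAT6, stood at 15.0 FPKM in Th9 + IL-1β and 4.06 FPKM in Th9 (1.66), and Irf1, the interferon-induced factor, at 84.2 FPKM in Th9 + IL-1β and 31.8 FPKM in Th9 (1.38). Of the 8 restraining factors, 2 were called higher and 0 lower (median 0.61). Bcl6, the defining factor of follicular helper T cells, stood at 8.03 FPKM in Th9 + IL-1β and 2.28 FPKM in Th9 (1.46), and Foxp3 at 13.3 FPKM in Th9 + IL-1β and 4.44 FPKM in Th9 (1.39). Irs2, on the list of IL-9 receptor signalling, was called higher, with 9.53 FPKM in Th9 + IL-1β and 2.76 FPKM in Th9. None of the 11 receptor genes compared was called.

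Transcripts of other cells stood in both in vivo libraries. All 6 lung epithelium markers were above 0, summing to 17017 FPKM in Th9 + IL-1β and 6566 FPKM in Th9, against 13.0 and 12.8 FPKM in Th9 + IL-1β and Th9 at day 3. All 7 myeloid markers summed to 1904 FPKM in Th9 + IL-1β and 678 FPKM in Th9, and all 5 markers of stroma and endothelium to 100.4 FPKM in Th9 + IL-1β and 35.8 FPKM in Th9. The 12 mast cell and basophil markers summed to 54.2 FPKM in Th9 + IL-1β and 14.9 FPKM in Th9. Of these, Mcpt8 (16.1 FPKM in Th9 + IL-1β, listed at 0 in Th9) and Hdc (10.2 FPKM in Th9 + IL-1β and 3.56 FPKM in Th9) were called higher. Cpa3 stood at 8.44 FPKM in Th9 + IL-1β and 2.85 FPKM in Th9, Gata2 at 6.56 and 3.00 FPKM, and Cma1 at 4.10 and 1.65 FPKM, and were not called. Ms4a2 went the other way, at 0 and 0.89 FPKM, and Mcpt4, Tpsab1 and Tpsb2 were listed at 0 in both. The 4 B cell markers summed to 24.3 FPKM in Th9 + IL-1β and 39.6 FPKM in Th9, and the 5 NK and CD8 markers to 17.3 FPKM in Th9 + IL-1β and 18.3 FPKM in Th9. T cell identity genes gave 0 calls among 13, near the 6.23% higher and 3.48% lower among all genes compared, so the count is no result about the list. Scaling both libraries to the sum of the T cell identity genes left the Il9 log2 ratio at -0.22. The part of other cells in the in vivo Il9 levels was not tested.

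Between in vivo and day 3, Il9 was called in 1 of the 2 arms. In Th9 + IL-1β it was called lower in vivo, at 49.6 FPKM in vivo against 274 FPKM at day 3, a log2 ratio of -2.44, where 5.87% of 8572 genes compared were called lower and 12.0% higher. This comparison and the IL-1β comparison at day 3 share the library of Th9 + IL-1β at day 3, so its high value enters both. The ratio was number 9 from the bottom among 8293 genes above 0 in both libraries, and the lowest of the 92 with transcripts of 429 to 670 bases, whose median was -0.54. In Th9, Il9 stood at 59.5 FPKM in vivo against 39.8 FPKM at day 3, a log2 ratio of 0.57 with overlapping intervals, and was not called, where 2.13% of 8126 genes were called higher and 0.665% lower.

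Among the 22 cytokines compared between in vivo and day 3 in Th9 + IL-1β, Il9 was the 1 called lower and Il33, a cytokine of epithelial and stromal cells, the 1 called higher. Among all 8572 genes compared there, 5.87% were called lower and 12.0% higher, so these counts are no result about the list. Il33 stood at 6.52 FPKM in vivo and was listed at 0 at day 3. In Th9, Il17a and Ifng were called lower among 19 compared, where 0.665% of 8126 genes compared were called lower and 2.13% higher. Il17a stood at 1.48 FPKM in vivo against 8.55 FPKM at day 3, and Ifng at 11.4 FPKM in vivo against 44.0 FPKM at day 3. Of the 24 inducing factors compared in Th9 + IL-1β, 4 were called higher in vivo (Sfpi1, Etv5, Irf1 and Notch1) and 1 lower (Batf3). These shares are near the 12.0% higher and 5.87% lower among all 8572 genes compared, so the count is no result about the list. Sfpi1, also a myeloid gene, stood at 15.0 FPKM in vivo in Th9 + IL-1β and 10.7 FPKM in vivo in Th9. Batf3 stood at 11.7 FPKM in vivo against 40.3 FPKM at day 3.

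Differences common to the stages or to the arms were tested with limma on log2 of FPKM + 1 over 8946 genes, with Benjamini-Hochberg adjustment over all of them and 2 residual degrees of freedom. For IL-1β, with stage as covariate, Il9 had a log2 difference of 0.83 (standard error 0.56) and an adjusted p of 0.937 in limma. It was higher in Th9 + IL-1β at 1 of 3 stages, lower at 1 and listed at 0 in both libraries at the other. The test called 0 genes (0%), with 320 at an unadjusted p under 0.05. Without the day 3 stage the log2 difference of Il9 was -0.13 (limma adjusted p = 0.984). Without the 1 h stage it was 1.25 (limma adjusted p = 0.588), in a fit that called 34 genes, 27 higher and 7 lower, and without the in vivo stage 1.38 (limma adjusted p = 0.999). Each fit without a stage had 1 residual degree of freedom.

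For in vivo against day 3, with arm as covariate, Il9 had a log2 difference of -0.94 (standard error 0.69) and an adjusted p of 0.906 in limma, lower in vivo in 1 of 2 arms. This test called 202 genes (2.26%), 2.17% higher and 0.0894% lower, and between 0 and 408 genes under other scalings, pseudocounts, filters and without the 1 h stage. The 408 came from the fit without the 1 h stage, which had 1 residual degree of freedom. A stage-specific IL-1β effect enters the residual of these models, so they test a shared difference and not the day 3 difference.

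None of the genes next to Il9 was called at day 3. Within 500 kb on either side in mm9 the files hold 11 other genes, of which 5 were listed at 0 in all 6 libraries. The nearest, Slc25a48, 6.9 kb away, was one of these, and Fbxl21, 40.3 kb away on the other side, was above 0 in Th9 in vivo alone, at 0.40 FPKM. The 1 neighbour at 5 FPKM or more at day 3 was H2afy, the gene of the histone variant macroH2A, 343.7 kb away, with 275 FPKM in Th9 + IL-1β and 210 FPKM in Th9 (log2 ratio 0.39, not called). Smad5, a SMAD of the BMP pathway 220.8 kb away, stood at 3.23 FPKM in Th9 + IL-1β and 3.46 FPKM in Th9 at day 3. In vivo, the chemokine gene Cxcl14, 182.7 kb away, was called higher, with 9.88 FPKM in Th9 + IL-1β and 0.44 FPKM in Th9, and was listed at 0 in both libraries at day 3.

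The genes closest to Il9 in profile were sought over the 4 poly(A) libraries. Likeness was the root mean square difference of log2(FPKM + 1), with each profile centred on its own mean, over 8301 named genes. The 8 closest were Hist1h4c, Hist1h4j, Pdss1, Comtd1, Rps28, Akr1b3, Nat9 and Pigp, with differences of 0.20 to 0.54. Hist1h4c and Hist1h4j encode the same histone protein and had the same values in these 4 libraries, 11.4 FPKM in Th9 + IL-1β and 0.70 FPKM in Th9 at day 3, and 1.30 FPKM in Th9 + IL-1β and 2.62 FPKM in Th9 in vivo, so their counts may not be separable. At 1 h, in rRNA-depleted RNA, Hist1h4c stood at 38.5 FPKM in Th9 + IL-1β and 37.3 FPKM in Th9. Hist1h4j stood at 15.9 and 7.47 FPKM there. The part of RNA selection in these profiles was not tested. Pdss1, Comtd1, Rps28, Akr1b3 and Pigp were listed at 0 in 3 of the 4 libraries. Rps28 encodes a ribosomal protein that every cell uses, so a listed 0 there can be a failed estimate.

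With the ranking restricted to the 7956 genes above 0 in all 4 libraries, a step chosen after seeing the data, 3 of the 8 stayed (Hist1h4c, Hist1h4j and Nat9), followed by Btf3, Frmd7, Timm8a1, Pnp2 and Tbca. Btf3, a factor that binds the nascent chain on the ribosome, stood at 208 FPKM in Th9 + IL-1β and 87.0 FPKM in Th9 at day 3, and at 66.9 FPKM in Th9 + IL-1β and 98.1 FPKM in Th9 in vivo. Nat9 stood at 17.0 FPKM in Th9 + IL-1β and 5.36 FPKM in Th9 at day 3, and at 6.92 FPKM in Th9 + IL-1β and 5.42 FPKM in Th9 in vivo. No cytokine gene or inducing factor was among either set of 8.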

How the data were processed

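RNA of 300000 Th9 or Th9 + IL-1β cells was sequenced on a MiSeq, per the labels' protocols. The submitters' processing notes name TopHat and mm9. Neither labels nor headers name the program behind the gene values or the level of the intervals. The authors deposited FPKM per gene with bounds, per the file headers. Of 23700 entries per file, 285 with a status other than OK were left out and entries sharing a symbol were summed. Library depth is unknown.

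Computed here were log2 ratios with a pseudocount of 1 FPKM, ranks, list counts and medians (Python 3.11.15, pandas 2.3.3, statsmodels 0.14.6) and limma 3.58.1 in R 4.3.3 at a threshold of 0.05, on genes that reach 5 FPKM in any library. For limma the stages, or the arms, are the only repeats. Transcript lengths are the longest in GENCODE M21, matched by symbol for 90.9% of genes compared at day 3. The rules were tested on simulated data. The gene, the 13 gene lists and the rules were chosen with earlier results of these data known. Named are Il9, called list members at day 3 or in vivo (1 is not reported here, and most called markers of other cell types are given only within their sums), members whose role is stated, the 8 closest profiles and the neighbours. Gapdh, Actb, B2m, Tgfb1, Lif and the further mast cell and basophil markers were named after their values were seen.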

Additional observations from a re-analysis of the deposited data

Results flagged for a closer look

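The log2 ratio of Il9 between Th9 + IL-1β and Th9 was above 0 at day 3 (2.76) and below 0 in vivo (-0.26). The difference between the stages was 3.01, and it was not tested, since each stage has 1 library per arm. The same 4 libraries give the difference between the arms. The in vivo over day 3 log2 ratio of Il9 was -2.44 in Th9 + IL-1β and 0.57 in Th9, a difference of -3.01, also not tested. In both cases the value that sets the difference is the 274 FPKM of Th9 + IL-1β at day 3.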

How the results depend on the processing

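The Il9 call at day 3 and the lower call in vivo over day 3 in Th9 + IL-1β held under every alternative run (pseudocounts of 0.1 and 5, 4 scalings, interval midpoints and, for the first, the length trend). Dropping the interval condition can only loosen a call and tests nothing for these 2. Their log2 ratios ranged from 2.18 to 2.80 and from -2.49 to -2.21. Scaling to TPM or to T cell identity genes gave the day 3 ratio as 2.59 and 2.62. In vivo, the IL-1β log2 ratio of Il9 ranged from -0.29 to -0.17 and was never called. In vivo over day 3 in Th9 ranged from 0.30 to 0.71, never called. The IL-1β difference in limma had adjusted p values from 0.588 to 0.999 over its alternatives. Leaving out a stage moved its log2 difference between -0.13 and 1.38, and -0.13, without day 3, had the opposite sign. Of the 8 genes closest to Il9, 6 were shared with a pseudocount of 5, 3 with genes above 0 in all 4 libraries (chosen after seeing the data), 0 with all 6 libraries and 0 by Pearson correlation. No paired analysis was possible because the labels give no replicate numbers to pair by. The limma fit for IL-1β does set the arms against each other within each stage, through its stage covariate. It called 0 genes in every alternative but 1, and 34 without the 1 h stage, with 1 residual degree of freedom. The limma fit for in vivo against day 3 called 202 genes as reported. Among its alternatives it called 0 with median scaling (190 at an unadjusted p under 0.05), 0 with T cell identity scaling (143 at an unadjusted p under 0.05), 4 with upper quartile scaling and 32 with TPM. It called 48 with a pseudocount of 0.1, 160 with a pseudocount of 5, 163 with interval midpoints and 8 with no filter. Without the 1 h stage, with 1 residual degree of freedom, it called 408. Unknown depth limits what a listed 0 can show.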
